A study of Bos taurus with 12 samples.

Results

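The 10 genes of the actin turnover cycle followed here in bovine precursor adipocytes were the cytoplasmic actins ACTB and ACTG1, the profilins PFN1 and PFN2, the thymosin TMSB10, the cyclase-associated protein gene CAP1, the cofilins CFL1 and CFL2, gelsolin (GSN) and the coactosin-like gene COTL1. They were chosen by name, and all 10 were found among the 29240 named genes of the count table and among the 16300 genes abundant enough to be tested. Cattle (Bos taurus) precursor adipocytes, the cells from which fat cells form, were transfected and their RNA was collected with TRIzol 48 h later, and stranded libraries of polyadenylated RNA were sequenced. There were 4 groups with 3 libraries each. The si group received an interfering RNA whose target the labels do not name, and si_NC was its negative control. The OE group received the expression plasmid pcDNA3.1 carrying the coding sequence of HGFAC, a secreted serine protease that activates hepatocyte growth factor, and OE_NC received pcDNA3.1-NC, whose insert the labels do not describe clearly. Each treated group with its control is called an experiment below. The labels give no animal, age or sex, and they do not say that libraries of a group were separate cultures. The p-values therefore measure only the spread between these libraries, which may be technical.

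Actin monomers join into filaments at one end and leave at the other, and the cell keeps a reserve of free monomer bound to small proteins. Thymosins hold monomers back, profilins bring them to growing ends and favour the exchange of ADP for ATP, cofilins and gelsolin sever filaments, CAP1 helps to take apart cofilin-bound filaments and recharges the monomer, and COTL1 binds filaments. Precursor adipocytes are spread, fibroblast-like cells rich in stress fibres, and these are dismantled as the cells become fat cells.

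Counts assigned to genes summed to 28.9 to 42.7 M per library, and a member had between 1262 counts (COTL1) and 113873 counts (ACTB) in a library, so no member was near the minimum count of 10 used to keep genes for the test. Gene positions are given as in the count table, whose build is not given in the sources used here. Levels are given as normalised counts in CPM within a gene, and as RPKM, which also divides by exon length, between genes. HGFAC stood at 138 to 189.6 CPM in OE against 0.273 to 0.526 CPM in OE_NC and rose by 8.67 ± 0.19 on the log2 scale (SE, n = 3 per group, edgeR adjusted p = 4.31e-13). In si it stood at 0.658 ± 0.165 CPM against 0.830 ± 0.0988 CPM in si_NC (SD, n = 3), a log2 difference of -0.35 ± 0.27 (SE, edgeR adjusted p = 0.512). Of the cell type markers, the stromal COL1A2 was the highest at a mean of 7200.3 CPM. The median of the stromal list was 109 CPM. The fat cell marker PPARG stood at 16.7 CPM, the immune marker CD68 at 4.40 CPM and the epithelial marker KRT19 at 1.90 CPM. Of the muscle markers, ACTA2 led the smooth muscle list at 3321 CPM and DES led the skeletal muscle list at 569 CPM. DES is on both lists. The median of the skeletal muscle list was 0.0392 CPM, and 2 of its 6 genes in the count table were tested. The median of the smooth muscle list was 355 CPM. The highest marker of bone and cartilage was SPP1 at 116 CPM and that of endothelium FLT1 at 64.2 CPM. The medians of these lists were 4.45 and 0.572 CPM, in that order. These were bulk libraries, in which fewer cells of a type and less RNA per cell cannot be told apart.

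Per base of exon, TMSB10 was the most abundant member. Its mean over the 12 libraries was 3012 RPKM (range 2609 to 3645), rank 10 among the 16300 tested genes. ACTB followed at 1225 RPKM (1007 to 1457, rank 52) and ACTG1 at 921 RPKM (757 to 1142, rank 77), so the monomer-holding thymosin exceeded each actin in all 12 libraries. PFN1 had 322 RPKM (203 to 493) and CFL1 301 RPKM (268 to 374). These neighbours were not separated: PFN1 was above CFL1 in 6 of 12 libraries. CAP1 had 157 RPKM (133 to 182). GSN, at 47.8 RPKM (30.1 to 67.4), was above CFL2, at 40.9 RPKM (36.2 to 46.7), in 10 of 12 libraries. COTL1 at 26.0 RPKM (19.1 to 34.7) and PFN2 at 16.0 RPKM (13.8 to 20.2) were lowest. Apart from the PFN1 and CFL1 pair and the GSN and CFL2 pair, each gene was above the next in 12 of 12 libraries. The 10 genes together took 0.629 to 0.764 percent of the normalised counts.

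**Figure D1:**
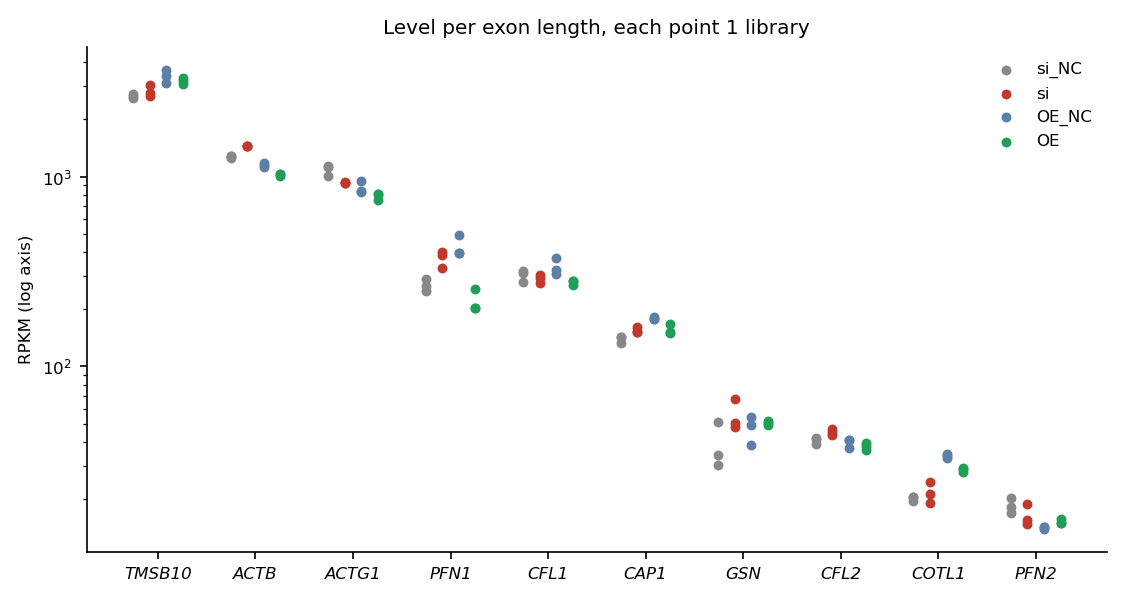
Level of each of the 10 genes per kilobase of exon (RPKM, log10 axis) in each of the 12 libraries, genes ordered by their mean and libraries marked by group. TMSB10 lies highest at a mean of 3012 RPKM and PFN2 lowest at 16.0 RPKM, while the points of PFN1 and CFL1 overlap.

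ACTG1, which encodes cytoplasmic gamma-actin, was the only 1 of the 10 genes to pass the test between si and si_NC, where 2.54 percent of all tested genes passed (0.92 percent higher and 1.62 percent lower in si). The test was edgeR's quasi-likelihood F test, with p-values adjusted over all 16300 tested genes and a threshold of 0.05. It stood at 1794, 1773 and 1792 CPM in si replicates 1 to 3 and at 2332, 1997 and 2323 CPM in si_NC. All 3 si libraries lay below all 3 si_NC libraries, and si_NC replicate 2 was the lowest of its group. ACTG1 fell by 0.31 ± 0.08 on the log2 scale (SE), or 1.24-fold (95% interval of the log2 change -0.48 to -0.15, edgeR adjusted p = 0.0443). This call was close to the threshold: it was lost when any of si replicate 1, si replicate 2, si_NC replicate 1 or si_NC replicate 3 was left out (edgeR adjusted p = 0.130 to 0.186), with scaling by library totals (log2 difference -0.23, edgeR adjusted p = 0.0933), when only the si and si_NC libraries were fitted (edgeR adjusted p = 0.151) and with limma on log2(RPKM + 1) (limma adjusted p = 0.135).

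In the HGFAC experiment ACTG1 did not pass the test. It stood at 1497, 1622 and 1591 CPM in OE and at 1828, 1563 and 1593 CPM in OE_NC. The 2 groups overlapped, and OE_NC replicate 1 was the highest of the 6 libraries. The log2 difference was -0.08 ± 0.08 (SE, edgeR adjusted p = 0.562). The difference between the changes in the HGFAC and the si experiment was 0.23 ± 0.11 (edgeR adjusted p = 0.208). It was 0.38 and passed with the trend on exon length taken out (edgeR adjusted p = 0.0269), and 0.0940 with library totals (edgeR adjusted p = 0.597).

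ACTB (chromosome 25, 38799230 to 38802643, plus strand), which encodes cytoplasmic beta-actin and is often used as a reference gene, had a coefficient of variation of 0.959 to 3.48 percent within groups. Its level was 2593, 2601 and 2639.9 CPM in si and 2421, 2395 and 2455 CPM in si_NC. In OE it was 1865, 1941 and 1895 CPM, and in OE_NC 2133, 2035 and 1994 CPM. All si libraries lay above all si_NC libraries and all OE libraries below all OE_NC libraries, by small amounts. Neither difference passed the test: the log2 difference was 0.11 ± 0.06 for si (SE, edgeR adjusted p = 0.313) and -0.11 ± 0.06 for OE (edgeR adjusted p = 0.244). The OE change minus the si change was -0.22 ± 0.08 for ACTB (edgeR adjusted p = 0.0978), and it passed with library totals (-0.36), with limma (-0.35) and in DESeq2 (-0.21). With the trend on exon length taken out it was -0.0533 (edgeR adjusted p = 0.723), and ACTB was then at -0.00670 in OE (edgeR adjusted p = 0.959) and 0.0466 in si (edgeR adjusted p = 0.670).

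The 2 actin genes moved apart in si. Their RPKM ratio, ACTB over ACTG1, was 1.54, 1.57 and 1.57 in si and 1.11, 1.28 and 1.13 in si_NC. It was 1.33, 1.28 and 1.27 in OE and 1.25, 1.39 and 1.34 in OE_NC, where the groups overlapped. The summed share of both genes in the normalised counts was 0.437 to 0.443 percent in si and 0.439 to 0.478 percent in si_NC, so ACTB stood higher where ACTG1 stood lower and the sum overlapped between the 2 groups. The ratios are given as a description and were not tested. The 2 genes have near-identical coding sequences, and how reads matching several genes were counted is not given in the sources used here, so the split between them is uncertain. ACTG1 (chromosome 19, 51259442 to 51262291, plus strand) also shares 83 exon bases with the microRNA gene MIR3533, whose annotated 84 bases were counted at a mean of 454 CPM. MIR3533 fell with ACTG1 in si, by 0.45 on the log2 scale (edgeR adjusted p = 0.0178), and the reads of the shared stretch cannot be told apart.

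PFN1, profilin 1, was the only 1 of the 10 genes to pass the test after transfection of the HGFAC plasmid, where 4.47 percent of all tested genes passed (2.22 percent higher and 2.25 percent lower in OE). It showed the largest difference of the 10 genes in that comparison. It stood at 211, 169 and 166 CPM in OE and at 395, 313 and 312 CPM in OE_NC. All OE libraries lay below all OE_NC libraries, and replicate 1 was the highest of its group in both. PFN1 fell by 0.90 ± 0.12 on the log2 scale (SE), or 1.87-fold (95% interval -1.15 to -0.66, edgeR adjusted p = 0.00243). It passed in each of the 6 fits that left out 1 library (log2 change -1.04 to -0.79) and under each of the 8 other settings (-0.96 to -0.63).

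In the si experiment PFN1 stood at 320.2, 306 and 265 CPM in si and at 227, 207 and 245 CPM in si_NC. All si libraries were above all si_NC libraries, with si replicate 3 nearest to the controls. The log2 difference was 0.39 ± 0.11 (SE, 95% interval 0.15 to 0.64) and did not pass the threshold (edgeR adjusted p = 0.0814). It passed without si replicate 3 (0.47, edgeR adjusted p = 0.0413), with library totals (0.47, edgeR adjusted p = 0.0406), without the low-count filter (0.37) and in the Wald test of DESeq2 (0.38, DESeq2 adjusted p = 0.0362).

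The changes of PFN1 in the 2 experiments differed from each other, the only such difference among the 10 genes, where 8.41 percent of all tested genes differed (4.29 percent with a positive and 4.12 percent with a negative value). The change in OE minus the change in si was -1.29 ± 0.16 on the log2 scale (SE, 95% interval -1.64 to -0.95, edgeR adjusted p = 0.00107), and it passed in all 12 fits without 1 library. The 4 group means, from low to high, were 182 CPM in OE, 226 CPM in si_NC, 297 CPM in si and 340.0 CPM in OE_NC. The libraries of OE and si_NC overlapped, as did those of si and OE_NC, so each treated group stood near the control of the other experiment. The controls themselves differed: PFN1 was higher in OE_NC than in si_NC by 0.59 ± 0.11 on the log2 scale (SE, edgeR adjusted p = 0.00327). PFN1 lies on chromosome 19 (26447402 to 26450242, plus strand).

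PFN2 (chromosome 1, 118211474 to 118220079, plus strand), the profilin best known from neurons, had estimates opposite in sign to those of PFN1 in both experiments. It stood at 60.0, 57.2 and 73.4 CPM in si and at 76.0, 81.1 and 69.6 CPM in si_NC. The groups overlapped through si replicate 3, the highest of its group. The log2 difference was -0.25 ± 0.09 (SE, edgeR adjusted p = 0.149), and without si replicate 3 it passed the test (-0.37, edgeR adjusted p = 0.0192). In OE it stood at 59.4, 60.7 and 62.5 CPM against 55.2, 54.8 and 53.2 CPM in OE_NC. These groups did not overlap, but the log2 difference of 0.16 ± 0.09 did not pass (SE, edgeR adjusted p = 0.302). The OE change minus the si change was 0.41 ± 0.13 for PFN2 (edgeR adjusted p = 0.0595). It passed without si replicate 3 (0.52), without the low-count filter (0.43), with the trend on exon length taken out (0.41) and in DESeq2 (0.43), and it was 0.27 with limma (limma adjusted p = 0.196).

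The ratios given next make no allowance for the trend on exon length described further on, and PFN1 has 815 exon bases against 3948 for PFN2. With that trend taken out, the log2 difference in OE was -0.63 for PFN1 and 0.12 for PFN2. The RPKM ratio of PFN1 to PFN2 was 17.2, 13.5 and 12.9 in OE and 34.7, 27.6 and 28.4 in OE_NC, with no overlap. It was 25.8, 25.9 and 17.5 in si and 14.5, 12.4 and 17.1 in si_NC. PFN1 was the more abundant profilin by at least 12.35 times in every library. Against the actins, the summed RPKM of both profilins was 0.154, 0.118 and 0.119 of that of ACTB and ACTG1 in OE and 0.238, 0.208 and 0.208 in OE_NC. In si the same ratio was 0.175, 0.168 and 0.146, and in si_NC 0.119, 0.118 and 0.126. The lowest si value, in replicate 3, was still above the highest si_NC value.

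**Figure D2:**
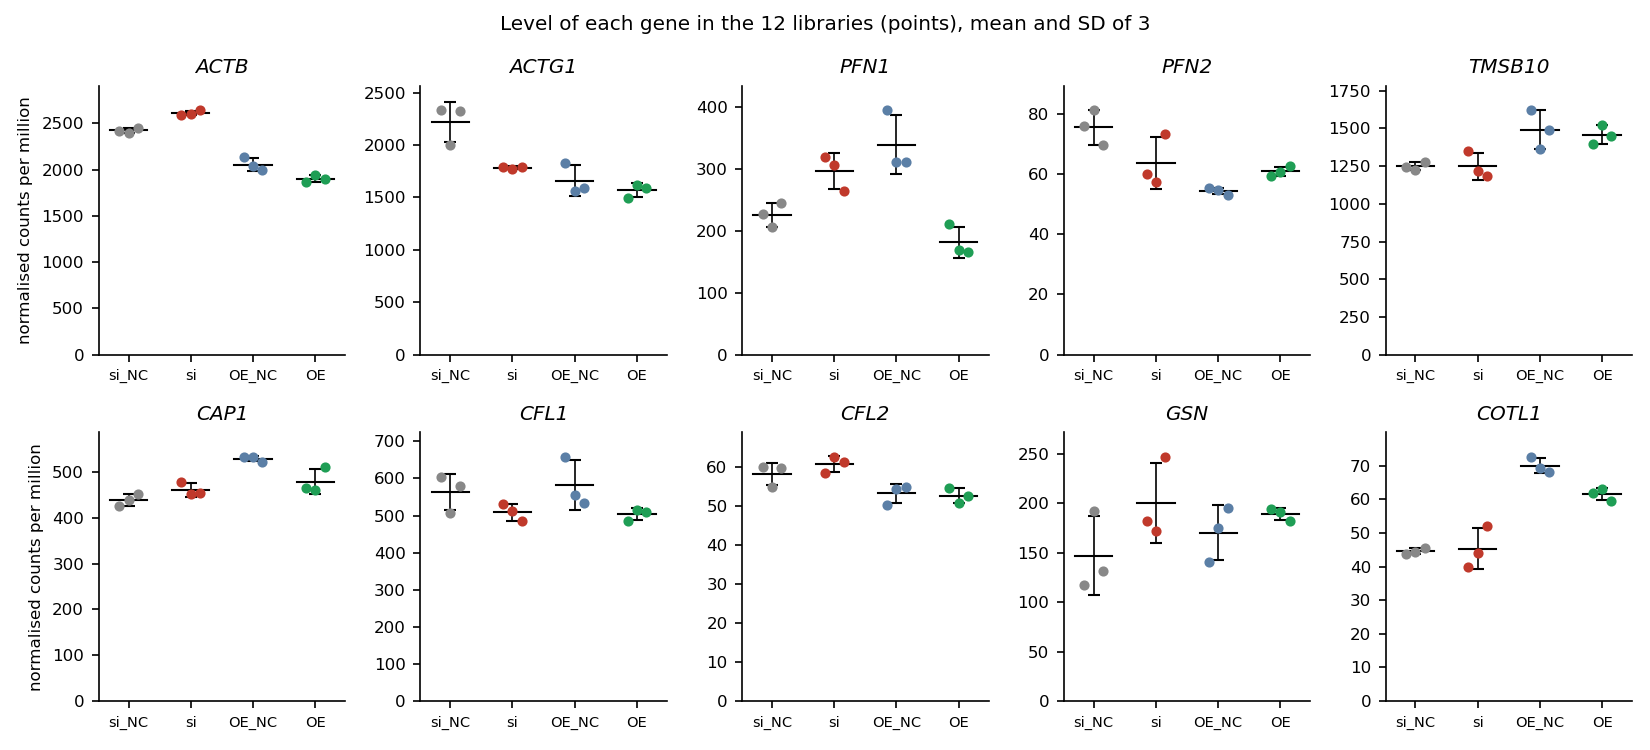
Normalised level (CPM) of each of the 10 genes in each library by group, with 1 panel per gene and its own axis from 0; points are libraries and bars mark the mean with the SD (n = 3). PFN1 lies between 166 and 211 CPM in OE and between 312 and 395 CPM in OE_NC, and ACTG1 lies between 1773 and 1794 CPM in si, below its 3 control libraries.

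TMSB10 (chromosome 11, 50094264 to 50095274, minus strand), a thymosin that binds free monomer, differed by less than the spread between libraries in each experiment. It stood at 1351, 1217 and 1183 CPM in si and at 1244, 1226 and 1279.7 CPM in si_NC, and the groups overlapped. Its level was 1399, 1523 and 1453 CPM in OE and 1620.0, 1363 and 1491 CPM in OE_NC, also with overlap. The log2 difference was 0.00 ± 0.07 in si (SE, 95% interval -0.16 to 0.16, edgeR adjusted p = 0.998) and -0.03 ± 0.07 in OE (95% interval -0.19 to 0.13, edgeR adjusted p = 0.836), before any allowance for exon length, which is described further on. The RPKM of TMSB10 was 1.09 to 1.16 times that of both actins together in si_NC and 1.11 to 1.28 times in si. In OE_NC and OE it was 1.58 to 1.73 and 1.74 to 1.78 times.

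CAP1 (chromosome 3, 106037112 to 106066217, minus strand) stood at 466, 462 and 510.0 CPM in OE and at 532, 533 and 523 CPM in OE_NC. The OE libraries were all lower, with replicate 3 nearest to the controls. The log2 difference of -0.14 ± 0.06 did not pass (SE, edgeR adjusted p = 0.184). In si it was 479, 451 and 453 CPM against 426, 439.6 and 452 CPM in si_NC, which overlapped (log2 difference 0.07 ± 0.06, edgeR adjusted p = 0.581). The OE change minus the si change was -0.21 ± 0.09 for CAP1 (edgeR adjusted p = 0.146), and it passed with library totals and with limma (both -0.35).

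CFL1 (chromosome 29, 43973068 to 43976493, minus strand), the main cofilin of non-muscle cells, stood at 485, 516 and 509.6 CPM in OE and at 658, 555 and 534 CPM in OE_NC. The groups did not overlap, and OE_NC replicate 1 was the highest. The log2 difference was -0.21 ± 0.09 (SE, edgeR adjusted p = 0.159). In si it was 531, 512 and 486 CPM and in si_NC 603, 508 and 579 CPM, with overlap through si_NC replicate 2 (log2 difference -0.14 ± 0.09, edgeR adjusted p = 0.386). CFL1 shares 136 exon bases with LOC789733 on the opposite strand, counted at a mean of 2.57 CPM, and LOC789733 fell by 0.91 on the log2 scale in OE (edgeR adjusted p = 0.0424). Whether the counting used strand was not given in the sources used here, so reads of the shared bases cannot be told apart.

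CFL2 (chromosome 21, 45099210 to 45101862, minus strand), the cofilin of muscle, ranged from 50.4 to 62.7 CPM over the 12 libraries. It averaged 60.9 ± 2.07 CPM in si and 58.3 ± 2.91 CPM in si_NC, and 52.8 ± 1.96 CPM in OE and 53.3 ± 2.49 CPM in OE_NC (SD, n = 3). The log2 differences were 0.06 ± 0.07 and -0.01 ± 0.07 (SE, edgeR adjusted p = 0.680 and 0.924). The RPKM ratio of CFL1 to CFL2 was 6.81 to 7.79 in OE and 7.46 to 10.0 in OE_NC, and 6.08 to 6.95 in si and 7.11 to 7.72 in si_NC. PFN1 stood at 0.717 to 0.954 of the RPKM of CFL1 in OE and 0.827 to 0.930 in si_NC, and at 1.20 to 1.32 in si and 1.24 to 1.32 in OE_NC. PFN1 was thus above CFL1 in each library of 2 groups and below it in each library of the others.

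**Figure D3:**
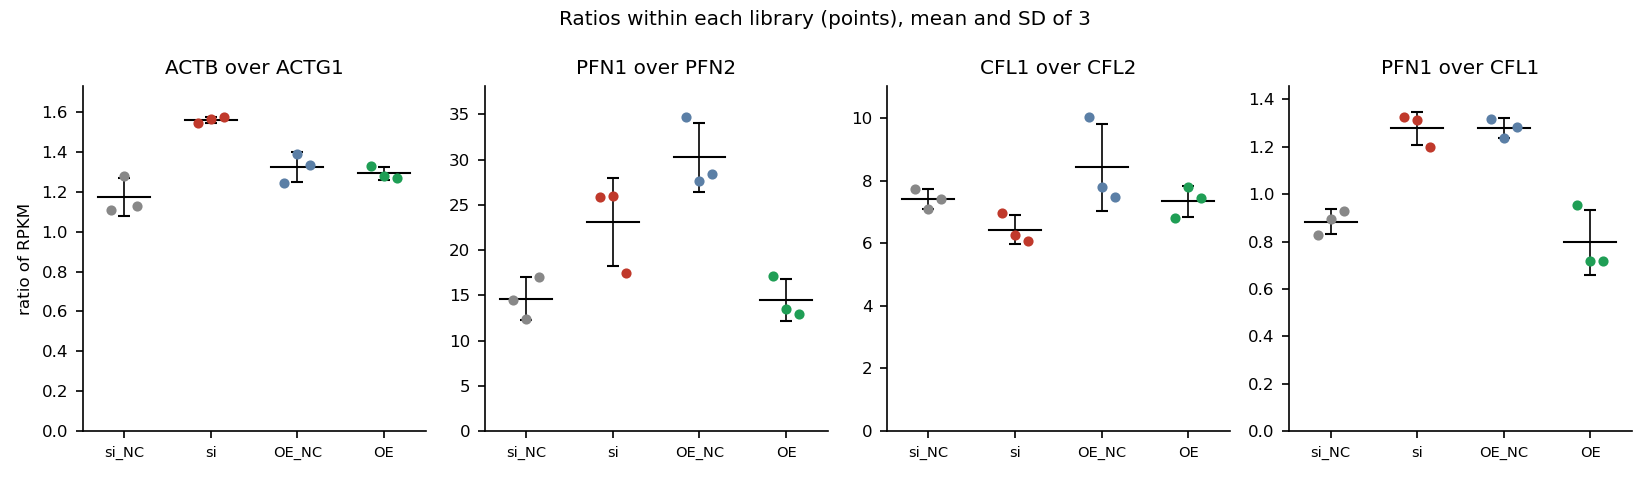
Ratios of RPKM within each library (points) by group, with the mean and SD of 3 libraries: ACTB to ACTG1, PFN1 to PFN2, CFL1 to CFL2 and PFN1 to CFL1, each axis from 0. The ratio of ACTB to ACTG1 lies at 1.54 to 1.57 in si against 1.11 to 1.28 in si_NC, and that of PFN1 to PFN2 at 12.9 to 17.2 in OE against 27.6 to 34.7 in OE_NC.

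GSN (chromosome 8, 110672949 to 110733958, plus strand), which severs and caps filaments in response to calcium, had a coefficient of variation of 26.9 percent in si_NC and 20.2 percent in si, and of 3.19 percent in OE. It stood at 182, 173 and 247 CPM in si and at 118, 192 and 132 CPM in si_NC. The groups overlapped, with si replicate 3 and si_NC replicate 2 each far above the rest of its group. The log2 difference was 0.45 ± 0.17 (SE, edgeR adjusted p = 0.166), and it passed without si_NC replicate 2 (0.68, edgeR adjusted p = 0.0161) and without the low-count filter (0.43). It was 0.27 without si replicate 3 (edgeR adjusted p = 0.395) and 0.31 without si_NC replicate 1 (edgeR adjusted p = 0.476). Over all tested genes, the deviations of si replicate 3 and si_NC replicate 2 from their group means correlated at r = 0.33 (16300 genes of 2 libraries, a description). That was the highest value among pairs of libraries from different groups, which ran from -0.27 to 0.33. In OE, GSN stood at 194, 191 and 183 CPM against 140.4, 175 and 195 CPM in OE_NC, with overlap (log2 difference 0.15 ± 0.17, edgeR adjusted p = 0.631).

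COTL1 (chromosome 18, 10775775 to 10838221, minus strand) stood at 61.9, 63.1 and 59.6 CPM in OE and at 72.6, 69.4 and 68.2 CPM in OE_NC, with no overlap and a log2 difference of -0.19 ± 0.09 (SE, edgeR adjusted p = 0.205). In si it was 39.9, 44.1 and 52.0 CPM, around the 43.7, 44.4 and 45.5 CPM of si_NC (log2 difference 0.02 ± 0.09, edgeR adjusted p = 0.910). All 6 libraries of the plasmid experiment were above all 6 of the si experiment for COTL1.

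Taken over the 10 genes, the median log2 difference in si was 0.04, beside 0.02 over all tested genes, and 4 of the 10 had an unadjusted p below 0.05 (edgeR), as did 18.9 percent of all tested genes. In OE the median was -0.10, beside -0.00460 over all genes. There, 8 of 10 estimates were negative. With the trend on exon length, described further on, taken out, ACTG1 (0.00841), TMSB10 (0.29) and CFL2 (0.15) turned positive. The rest of those 8 stayed negative. The groups did not overlap for 6 of 10 genes and for 33.3 percent of all tested genes, and 4 of 10 had an unadjusted p below 0.05, as did 22.9 percent of all tested genes. For the difference between the 2 changes the median was -0.15 beside -0.02. The 2 comparisons share no library, but each change is read against its own control, and those controls differed.

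**Figure D4:**
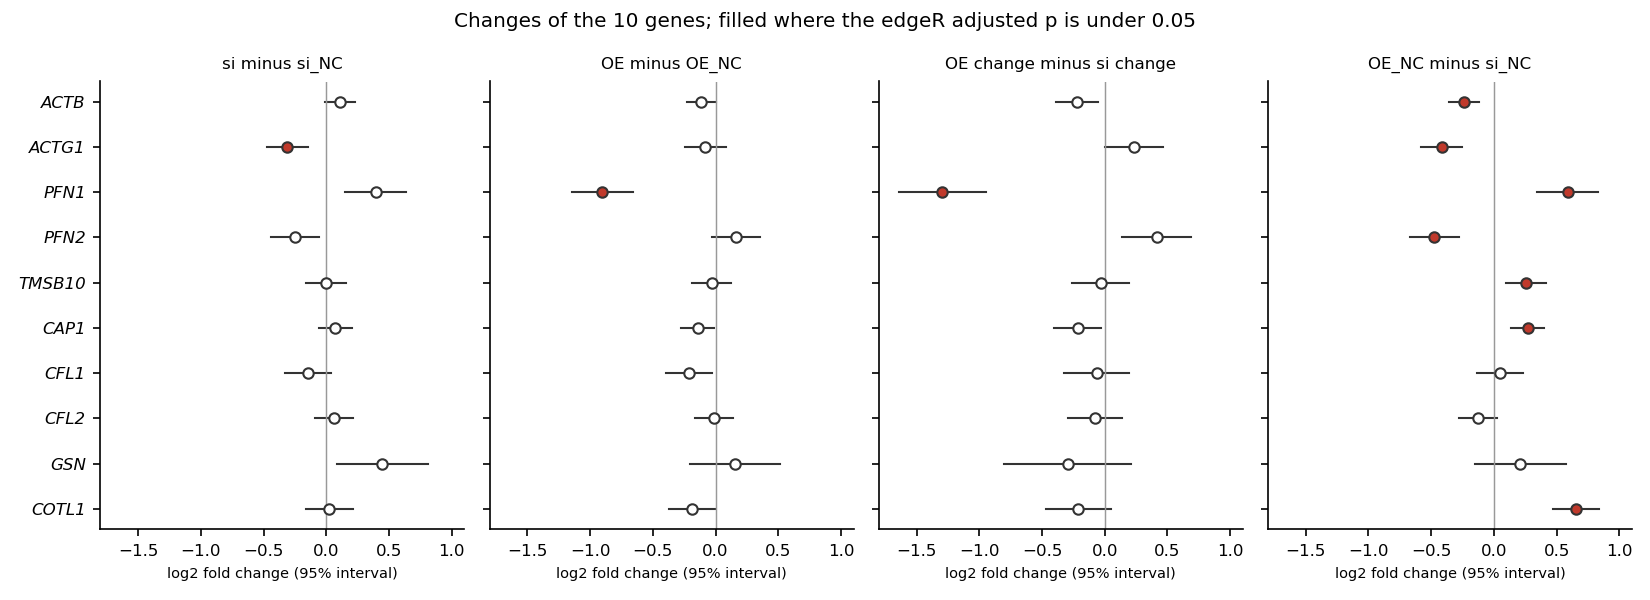
Log2 change of each of the 10 genes in si minus si_NC, OE minus OE_NC, the OE change minus the si change, and OE_NC minus si_NC, with bars for the 95% interval from the edgeR fit and filled points for an adjusted p below 0.05. PFN1 has the lowest value in the HGFAC comparison (-0.90), and 7 of the 10 genes pass between the 2 controls.

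The largest count of calls among the 10 genes was between the 2 control groups. Of the 10, 7 passed in OE_NC minus si_NC, where 19.7 percent of all tested genes passed (9.49 percent higher and 10.2 percent lower in OE_NC). COTL1 (70.1 ± 2.30 against 44.5 ± 0.881 CPM, SD, n = 3), PFN1, CAP1 and TMSB10 were higher in OE_NC, and ACTG1, ACTB and PFN2 (54.4 ± 1.06 against 75.6 ± 5.78 CPM) were lower. On the log2 scale COTL1 was higher by 0.65 ± 0.09 (SE, edgeR adjusted p = 0.000309) and CAP1 by 0.27 ± 0.06 (edgeR adjusted p = 0.00828). ACTG1 was at -0.42 ± 0.08 (edgeR adjusted p = 0.00240), PFN2 at -0.47 ± 0.09 (edgeR adjusted p = 0.00291) and ACTB at -0.24 ± 0.06 (edgeR adjusted p = 0.00839). The 3 libraries of 1 group lay wholly above those of the other for each of these 7 genes, as for 35.8 percent of all tested genes. CFL1, CFL2 and GSN overlapped between the controls and did not pass, though GSN passed without si_NC replicate 2 (0.45, edgeR adjusted p = 0.0453) and CFL2 with the trend on exon length taken out (-0.35).

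Several of these calls between controls depended on a setting. ACTB was not called with library totals (-0.15, edgeR adjusted p = 0.0606), with only the 2 control groups fitted (edgeR adjusted p = 0.0629) or with limma on log2(RPKM + 1) (limma adjusted p = 0.0880). TMSB10, at 0.25 ± 0.07 (edgeR adjusted p = 0.0263), was lost in 5 of 6 fits without 1 library, all but the one without OE_NC replicate 2. The control groups differ in what was transfected. Any other difference between the si and the plasmid libraries cannot be told apart from that. Both comparisons with HGFAC or si above share a control with this one: OE_NC enters the HGFAC comparison and si_NC the si comparison.

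Exon length went with the changes over all genes. The 1933 tested genes with under 1000 exon bases had a median log2 difference of -0.28 in OE, 0.09 in si, -0.34 in the difference of the 2 changes and 0.30 between the controls. In the longest of 10 equal bins of genes by exon length (1630 genes) the medians were 0.14, 0.05, 0.09 and -0.09. PFN1 (815 exon bases) and TMSB10 (452 exon bases) are the members under 1000 bases, and the other 8 have 1374 to 3948 bases. With a smooth trend of the change on exon length taken out of every library, PFN1 in OE was at -0.63 ± 0.09 (SE, edgeR adjusted p = 0.00462) and the difference between the 2 changes at -0.92 (edgeR adjusted p = 0.000876). The PFN1 difference between the controls was then 0.28 in place of 0.59 (edgeR adjusted p = 0.0373). TMSB10 in OE was then at 0.29 (edgeR adjusted p = 0.0475), past the threshold with the opposite sign, and between the controls at -0.07 (edgeR adjusted p = 0.528). The direction given for TMSB10 in these 2 comparisons thus turned with the allowance for length, while that of PFN1 kept its sign and its call.

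**Figure D5:**
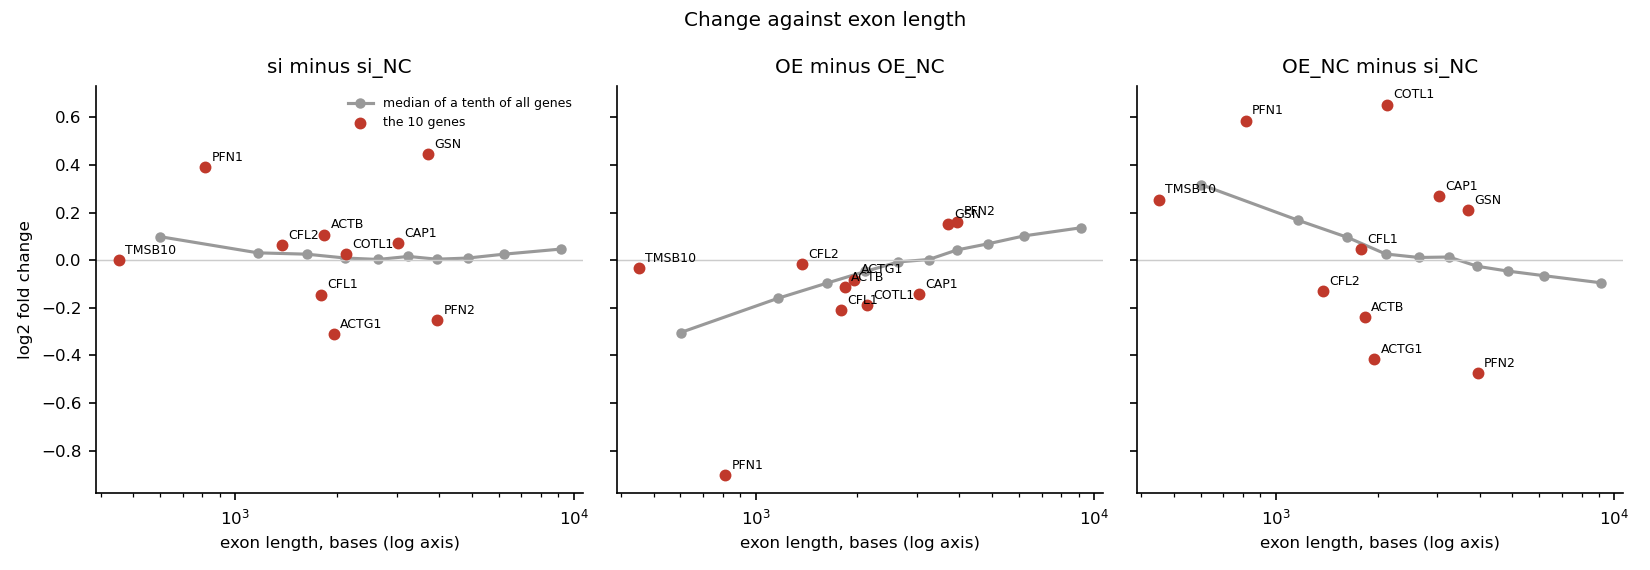
Median log2 change of all tested genes in each of 10 equal bins of exon length (lines, x axis exon bases on a log10 scale) with the 10 genes as points, for si minus si_NC, OE minus OE_NC and OE_NC minus si_NC. The shortest bin lies at -0.30 in OE and 0.32 between controls, and PFN1 in OE lies below that line at -0.90.

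Beside the 10 genes, 115 genes that regulate or build on actin were listed by role; 112 were in the count table and 108 were tested. In si, 3 of the 108 rose and 1 fell (edgeR). Of all tested genes, 2.54 percent passed there (0.92 percent higher and 1.62 percent lower). The median log2 difference of the 108 was 0.03, beside 0.02 over all tested genes. CAPZA2, a subunit of the capping protein that blocks growing ends, rose from 45.9 ± 1.00 to 59.9 ± 1.70 CPM (SD, n = 3; log2 change 0.38 ± 0.07, SE, edgeR adjusted p = 0.00971). CNN2, a calponin that binds filaments, rose from 30.8 ± 1.94 to 42.8 ± 2.24 CPM (0.48 ± 0.08, edgeR adjusted p = 0.00911). TESK1, a kinase that phosphorylates and so inactivates cofilin, rose from 3.47 ± 0.243 to 5.24 ± 0.835 CPM (0.59 ± 0.14, edgeR adjusted p = 0.0364). ENAH, which protects growing ends from capping and recruits profilin-actin, fell from 1628 ± 40.2 to 1289.8 ± 85.6 CPM (-0.34 ± 0.07, edgeR adjusted p = 0.0204). All 4 pairs of groups were without overlap, which describes genes already picked by the test. Leaving out 1 library ended the call of CNN2 in 2 of 6 fits (si replicate 1 or si_NC replicate 1), that of CAPZA2 in 3 (si replicate 1 or 2, or si_NC replicate 3), that of ENAH in 4 (si replicate 1 or 2, or si_NC replicate 1 or 3) and that of TESK1 in 5, all but si replicate 3. Of the 8 other settings, 7 called CAPZA2 and CNN2, 6 called TESK1 and 5 called ENAH.

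In OE, 3 of the 108 genes rose and 3 fell, where 4.47 percent of all tested genes passed (2.22 percent higher and 2.25 percent lower). The median log2 difference of the 108 was 0.04, beside -0.00460 over all tested genes. The muscle actins ACTA1 and ACTC1 fell. How reads matching several actin genes were counted is not given in the sources used here, so the split of actin reads is uncertain. ACTA1 was at 9.69 ± 0.781 CPM in OE against 15.5 ± 1.76 CPM in OE_NC (SD, n = 3; -0.68 ± 0.14 on the log2 scale, SE, edgeR adjusted p = 0.0208), and ACTC1 at 1.41 ± 0.0204 against 2.85 ± 0.175 CPM (-1.02 ± 0.19, edgeR adjusted p = 0.0161). CALD1, which encodes caldesmon, rose from 13693 to 18512 CPM (0.44 ± 0.09, edgeR adjusted p = 0.0245), ROCK1, a kinase that promotes actomyosin contraction, from 654 to 814 CPM (0.32 ± 0.08, edgeR adjusted p = 0.0446) and WIPF1, a partner of the Arp2/3 activator WASP, from 12.6 to 20.4 CPM (0.70 ± 0.17, edgeR adjusted p = 0.0382). Each of these 5 calls was lost without any 1 of OE replicates 1 to 3 and OE_NC replicates 1 and 2, except that ACTC1 held without OE replicate 1. Of the 8 other settings, all called ACTA1 and ACTC1, 7 called CALD1 and WIPF1 and 5 called ROCK1. TMSB4X, the other abundant thymosin, stood at 672 ± 28.2 CPM in OE and 798 ± 37.5 CPM in OE_NC with no overlap (-0.25 ± 0.07, edgeR adjusted p = 0.0611), and at 0.05 on the log2 scale with the length trend taken out. The smooth muscle actin ACTA2, far more abundant than the 2 that fell, was at 3620 ± 114 CPM in OE and 3586 ± 260 CPM in OE_NC. Of the 2 skeletal muscle markers tested, DES rose and ACTA1 fell. The sum over that list was 713 to 743 CPM in OE and 517 to 589 CPM in OE_NC. DES alone averaged 569 CPM over the 12 libraries, and it is also on the smooth muscle list. Of the smooth muscle markers 2 rose, DES among them. The sum over the smooth muscle list was 5616 to 6018 CPM in OE and 5513 to 6175 CPM in OE_NC. The part of these markers in the changes was not tested.

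Between the 2 controls, 15 of the 108 genes were higher in OE_NC and 13 lower. Of all tested genes, 19.7 percent passed there (9.49 percent higher and 10.2 percent lower). The median log2 difference of the 108 was -0.02, beside 0.02 over all tested genes. Among the higher were ARPC1B (0.35) and ARPC2 (0.36) of the Arp2/3 complex, its activator subunit BRK1 (0.74), the capping genes CAPZA2 (0.49) and CAPG (0.60), TMSB4X (0.22) and the contractile genes TAGLN (0.49), TPM2 (0.37) and ACTA1 (0.76). Among the lower were the formin DIAPH1 (-0.29), ENAH (-0.27), the cofilin phosphatase SSH1 (-0.39), PAK2 (-0.29), cortactin (CTTN, -0.33), ROCK1 (-0.35), SRF (-0.31), a transcription factor of actin genes, and ACTN1 (-0.18). The formin FMNL3 was higher (0.40), and FLII of the gelsolin family was lower (-0.35). All of these passed in the edgeR fit. DIAPH1 shares 165 exon bases with LOC112447441 (mean 28.96 CPM) and FLII 49 with LLGL1 (5.45 CPM), each on the opposite strand. Without 1 library, the call of ACTN1 was lost in 6 of 6 fits, those of TMSB4X, ARPC1B, FMNL3 and SSH1 in 4, those of DIAPH1 and SRF in 2 and that of FLII in 1. TMSB4X and ACTN1 were called in 3 of 8 other settings, and TMSB4X was at -0.11 with the trend on exon length taken out. All 4 genes called in si also passed between the controls: CAPZA2, CNN2 (0.47) and TESK1 (0.55) were higher in OE_NC and ENAH lower. So did ACTA1 and ROCK1 of those called in OE. The si comparison and this one both subtract si_NC, which pushes their values towards the same sign. OE_NC is subtracted in the HGFAC comparison and not here, which pushes those values towards opposite signs. The shared calls are therefore partly built in and are not separate evidence. The summed smooth muscle markers ranged from 4561 to 5338 CPM in si_NC and from 5513 to 6175 CPM in OE_NC, and their part in these differences was not tested.

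The genes whose levels followed PFN1 most closely over the 12 libraries, among 8832 genes with a symbol and a mean of at least 5 CPM, were ATP5MC3, a subunit gene of the mitochondrial ATP synthase (Pearson r = 0.964, Spearman 0.972), PYCR3, an enzyme gene of proline synthesis (0.961 and 0.895), and SMAD6, an inhibitory SMAD (0.936 and 0.909). Without the 2 libraries farthest from the PFN1 median, r was 0.931, 0.930 and 0.910. ATP5MC3 had 695 exon bases, while SMAD6 had 3999. For ACTB they were the glycolytic enzyme gene GPI (r = 0.982), the pentose phosphate enzyme gene TKT (0.977) and TINAGL1 (0.970), a matrix protein gene. GPI averaged 99.3 CPM in si and 92.7 CPM in si_NC, the same order of groups as ACTB. For CFL1 they were YBX1 (r = 0.971), BTF3 (0.967) and the ribosomal protein gene RPL3 (0.947). All of these libraries belong to 4 groups, so these r values describe a shared pattern over groups and carry no test.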

How the data were processed

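The 12 libraries were grouped by their titles. The authors deposited raw counts per gene and RPKM values, which this work found equal to counts over exon length and column total. Tools named in the submitters' processing notes were featureCounts, Subread 1.5.1 and fastp 0.23.0. The aligner, build, strand setting and handling of multi-mapping reads were not given in the sources used here. Left out were 2 rows without a gene name (0.0868 to 0.116 percent of each library).

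The test of counts, in R 4.3.3, used edgeR 4.0.16 with TMM factors, filterByExpr (minimum count 10, minimum total 15), a mean per group over all 12 libraries (8 residual degrees of freedom) and the quasi-likelihood F test, with Benjamini-Hochberg adjustment over 16300 genes and a threshold of 0.05. The script was tested on simulated data. SEs are the log2 change over the root of F. Alternatives were DESeq2 1.42.0, limma 3.58.1 on log2(RPKM + 1), other scalings, no filter, a replicate block, a spline offset on exon length and each library left out.

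The members and the 115 listed genes were chosen with earlier results of these data known. Named were all members, up to 3 called genes of each list and comparison by mean CPM (otherwise its most abundant gene), exon neighbours, the top marker of each list and the 3 genes most like PFN1, ACTB and CFL1. Of the 115 listed, TMSB15A, FMN2 and MRTFA were not matched, and MRTFB was matched as MKL2. Libraries of a group correlated at r = 0.984 to 0.993 (log2 CPM). Results for some listed genes are not reported here.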

Additional observations from a re-analysis of the deposited data

Results flagged for a closer look

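For the 13 genes given here the change in OE and the change in si differed in a test of the difference itself (edgeR, adjusted p below 0.05), where 8.41 percent of all tested genes did. The values are log2 changes in OE minus those in si, and a negative value means that the gene stood lower in OE relative to its control than in si relative to its own. Among the 10 members this was PFN1, at -1.29. Among the listed genes, lower values were found for the muscle actins ACTA1 (-1.22) and ACTC1 (-1.32), for the filament binder CNN2 (-0.73), for BRK1 (-0.70), a subunit of the complex that activates Arp2/3, for the kinase TESK1 (-0.69), and for the capping genes CAPG (-0.59) and CAPZA2 (-0.46). Higher values were found for ENAH (0.56), CALD1 (0.50), the formin DIAPH2 (0.45), ROCK1 (0.42) and the crosslinker ACTN1 (0.38). This difference also subtracts OE_NC minus si_NC, where each of these 13 genes had an estimate of the opposite sign. ACTC1 and CALD1 did not pass the test there (edgeR). CAPZA2, for example, averaged 61.2 CPM in OE, 64.4 CPM in OE_NC and 59.9 CPM in si, against 45.9 CPM in si_NC. The part of the controls in these values was not tested. PFN1, ACTA1, ACTC1, CAPZA2, CNN2 and ENAH passed in all 12 fits without 1 library, while the call was lost in 10 of them for DIAPH2 and TESK1, 9 for ROCK1, 8 for CAPG, 7 for CALD1, 6 for BRK1 and 2 for ACTN1.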

How the results depend on the processing

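Over the 10 members and 4 comparisons, 547 of 610 values under other settings kept their direction and their side of the threshold, 17 lost a call, 20 gained one and 26 changed sign. Every member had at least 1262 counts in each library, and the 3 libraries per group limit the precision.

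The number of genes called in si (414) was 1208 without the low-count filter, 8 with only the groups compared, 1093 with the exon-length offset and 1125 with DESeq2; without 1 library it was 56 to 1083, and members called were 0 to 3. In OE (728) it was 1679 without that filter, 1621 with only the groups compared and 1541 with DESeq2, and 19 to 758 without 1 library, lowest without OE replicate 2. Without 1 library the difference gave 588 to 2152 genes (1371) and 1 to 2 members, and the controls 1882 to 2833 (3215). Members called in si (1) were 3 without the filter, 2 with DESeq2 and 0 with only the groups compared or limma. Members called in OE (1) were 2 with the exon-length offset. For the difference (1) they were 3 with library totals, DESeq2 or limma, 2 without the filter and 4 with the exon-length offset (PFN1, PFN2, TMSB10 and ACTG1).

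Scaling by library totals moved the median of all genes to 0.10 in si, -0.06 in OE, -0.16 in the difference and 0.11 between controls, and of the calls 298 of 404, 159 of 812, 265 of 1534 and 2298 of 3242 were then higher (150 of 414, 362 of 728, 700 of 1371 and 1547 of 3215 in the fits reported). With the exon-length offset 175 of 1093, 393 of 539, 1365 of 1812 and 1037 of 3794 were higher, and with limma 245 of 329, 123 of 612, 264 of 1425 and 2288 of 3189.

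Replicate numbers did not pair the libraries: deviations of same-numbered libraries correlated at -0.26 to 0.28. With a replicate block 396 genes were called in si, 803 in OE, 1247 for the difference and 3150 between controls; ACTG1 in si was then at -0.31 (edgeR adjusted p = 0.0521) and PFN1 in si at 0.39 (edgeR adjusted p = 0.0465).

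TMSB10 in si was -0.0145 with DESeq2 or its size factors, -0.0206 without the filter, -0.00104 with the replicate block and -0.113 with the exon-length offset, and -0.0659 to 0.0362 without 1 library. The offset also gave CFL2 -0.0136, COTL1 -0.0251 and TMSB4X -0.0405 in si. In OE it gave ACTG1 0.00841, TMSB10 0.29, CFL2 0.15 and TMSB4X 0.04996. For the difference it gave TMSB10 0.40, CFL1 0.11, CFL2 0.17 and TMSB4X 0.0904, and TMSB10 -0.0715, CFL1 -0.11 and TMSB4X -0.11 between controls. ACTA2 in si was 0.0470 with library totals and 0.0473 with limma. Without 1 library the ranges crossed 0 for COTL1 (-0.0880 to 0.10) and ACTA2 (-0.0919 to 0.0582) in si, TMSB10 (-0.10 to 0.0192) and CFL2 (-0.0656 to 0.00273) in OE, TMSB10 (-0.10 to 0.0220) and CFL1 (-0.14 to 0.0182) for the difference, and CFL1 (-0.0470 to 0.11) between controls. The cause of these changes was not tested.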
